A study of Bos taurus with 8 samples.

Results

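Aldo-keto reductases and glutathione transferases were examined in lactating mammary gland of 4 Holstein cows (Bos taurus), sampled by biopsy. The genes were 8 named symbols, AKR1C4, AKR1A1, AKR1B1, GSTO1, GSTP1, GSTA1, GSTM1 and GSTT1, and every probe set annotated with exactly 1 of them was taken. Of these, 5 symbols were found on 10 of the 24016 tested probe sets, with 6 for AKR1C4 and 1 each for AKR1A1, AKR1B1, GSTO1 and GSTT1. GSTP1, GSTA1 and GSTM1 matched no probe set with a single symbol and are not analysed here. The symbols were named with results of these data known and are taken here as chosen by the spread of their log2 levels between animals, so the members' spread between cows is described and not tested.

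Each cow gave 1 biopsy at 12 h since milk removal, when the gland is called full, and 1 at 0 h, when milk had just been removed and the gland is called empty. All 8 samples share the breed and the lactating state, and no other treatment is named in the labels. The sources used here do not give the age of the cows, the order of sampling or the side of the udder. Effects of the order or side of sampling cannot be told apart from that of the state. The study addresses what milk accumulation does to gene expression in the gland.

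Aldo-keto reductases use NADPH to reduce aldehydes and ketones, among them sugars, steroids and prostaglandins. Glutathione transferases join the tripeptide glutathione to reactive electrophiles, which makes them soluble and ready for export. Many genes of both families are targets of the transcription factor NRF2 (encoded by NFE2L2), and both families belong to the detoxification system of liver and of epithelia, including the mammary epithelium.

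The levels are log2 values from a robust multi-array average (RMA), in which 1 unit is a 2-fold step in signal. The median level of an array lay between 7.08 and 7.24. Cows 2 and 4 each had a full library apart from the rest, correlating with the remaining arrays at a median r of 0.969 and 0.975, where each of the other 6 libraries reached 0.986 or above. Over all probe sets, full minus empty had an SD of 0.38 and 0.30 in those cows, and 0.19 and 0.17 in cows 1 and 3. The tissue label was borne out by the secretory markers, since LALBA (alpha-lactalbumin) read 14.16 to 14.26 and CSN3 (kappa-casein) 13.76 to 13.99 in all 8 libraries. In bulk biopsies, fewer cells of a type and less RNA per cell cannot be told apart.

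AKR1C4 belongs to the AKR1C group, which reduces steroids and prostaglandins, and in humans it is a hydroxysteroid dehydrogenase of the liver. Its brightest probe set (entrez gene 282138) read 10.49 in full and 10.38 in empty gland of cow 1, and 10.24 and 10.11 in cow 2. In cow 3 it read 7.12 in full and 7.37 in empty gland, and in cow 4 it read 7.20 and 7.03. All 4 libraries of cows 1 and 2 therefore lay above all 4 libraries of cows 3 and 4, and the gap between the nearest libraries was 2.74 log2. The cow means, from cow 1 down to cow 4, were 10.43, 10.17, 7.25 and 7.12, a span of 3.32 log2 or 9.96-fold. Cows 3 and 4 overlapped in their libraries, while cow 1 lay above cow 2 by a gap of 0.13 log2 between the nearest libraries. Within the cows, full minus empty was 0.11, 0.14, -0.25 and 0.17 in cows 1 to 4, all small beside that span.

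**Figure D1:**
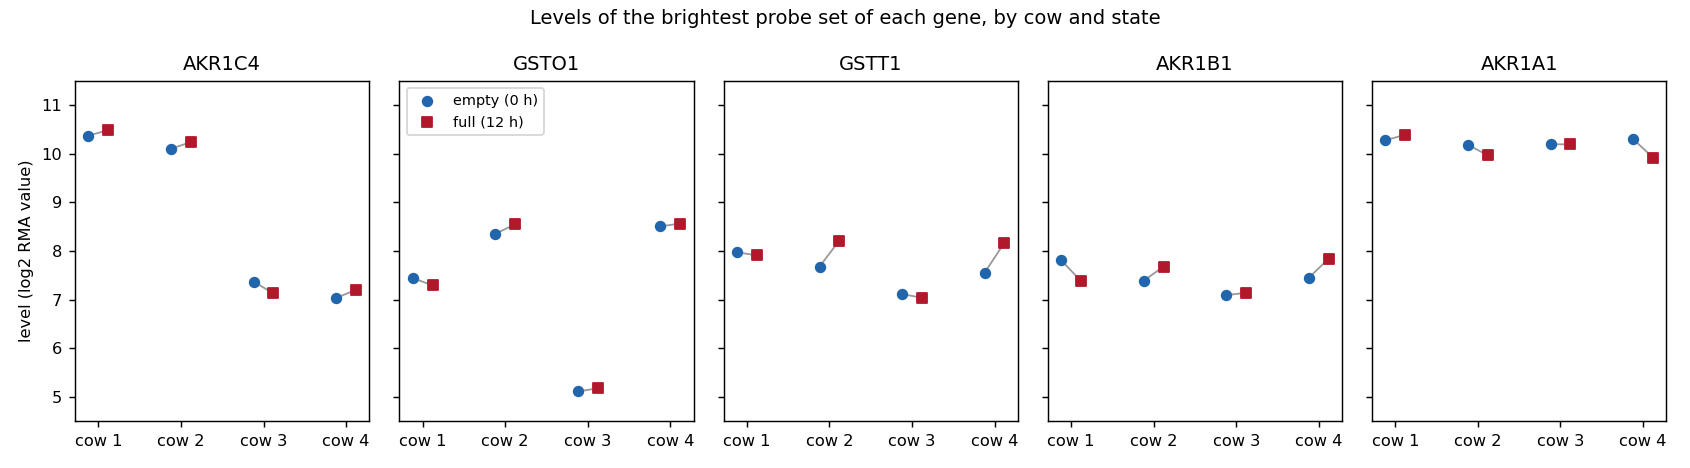
Level (log2 RMA value) of the brightest probe set of each gene in each cow, with a blue circle for empty (0 h) and a red square for full gland (12 h), and a line joining the pair. AKR1C4 sat between 10.11 and 10.49 in cows 1 and 2 and between 7.03 and 7.37 in cows 3 and 4, and GSTO1 sat at 5.11 and 5.17 in cow 3.

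The other 5 AKR1C4 probe sets were dim and did not show this split. The brightest of them read 6.09 and 6.14 in cow 1, 6.70 and 6.24 in cow 2, 5.99 and 6.12 in cow 3, and 5.81 and 6.04 in cow 4, for full and empty gland in that order. Its cow means spanned 0.54 log2, with cow 2 above the others and the libraries of cows 1, 3 and 4 overlapping. The remaining 4 probe sets spanned 0.13 to 0.17 log2 between cow means. Their mean levels lay between the 1.22 and 11.9 percentiles of all probe sets, so that they held little signal in any cow. The AKR1C4 split is therefore a result of 1 of the 6 probe sets that carry the symbol.

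A further probe set of the same design group is annotated to LOC782061, a gene that lies on the AKR1C4 chromosome in the RefSeq genes of ARS-UCD2.0 with 6 protein-coding genes between them. It was designed from the same source sequence as 2 of the dim AKR1C4 probe sets. It read 6.97 and 6.82 in cow 1, 6.67 and 6.70 in cow 2, 5.97 and 6.04 in cow 3, and 5.87 and 6.03 in cow 4, for full and empty gland. Here too all libraries of cows 1 and 2 lay above those of cows 3 and 4, with a span of 0.94 log2 between cow means. The suffix of its name marks probes that can also match other transcripts. Members of the AKR1C group are close copies in sequence, so which copies the probes of this design group read is uncertain.

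**Figure D2:**
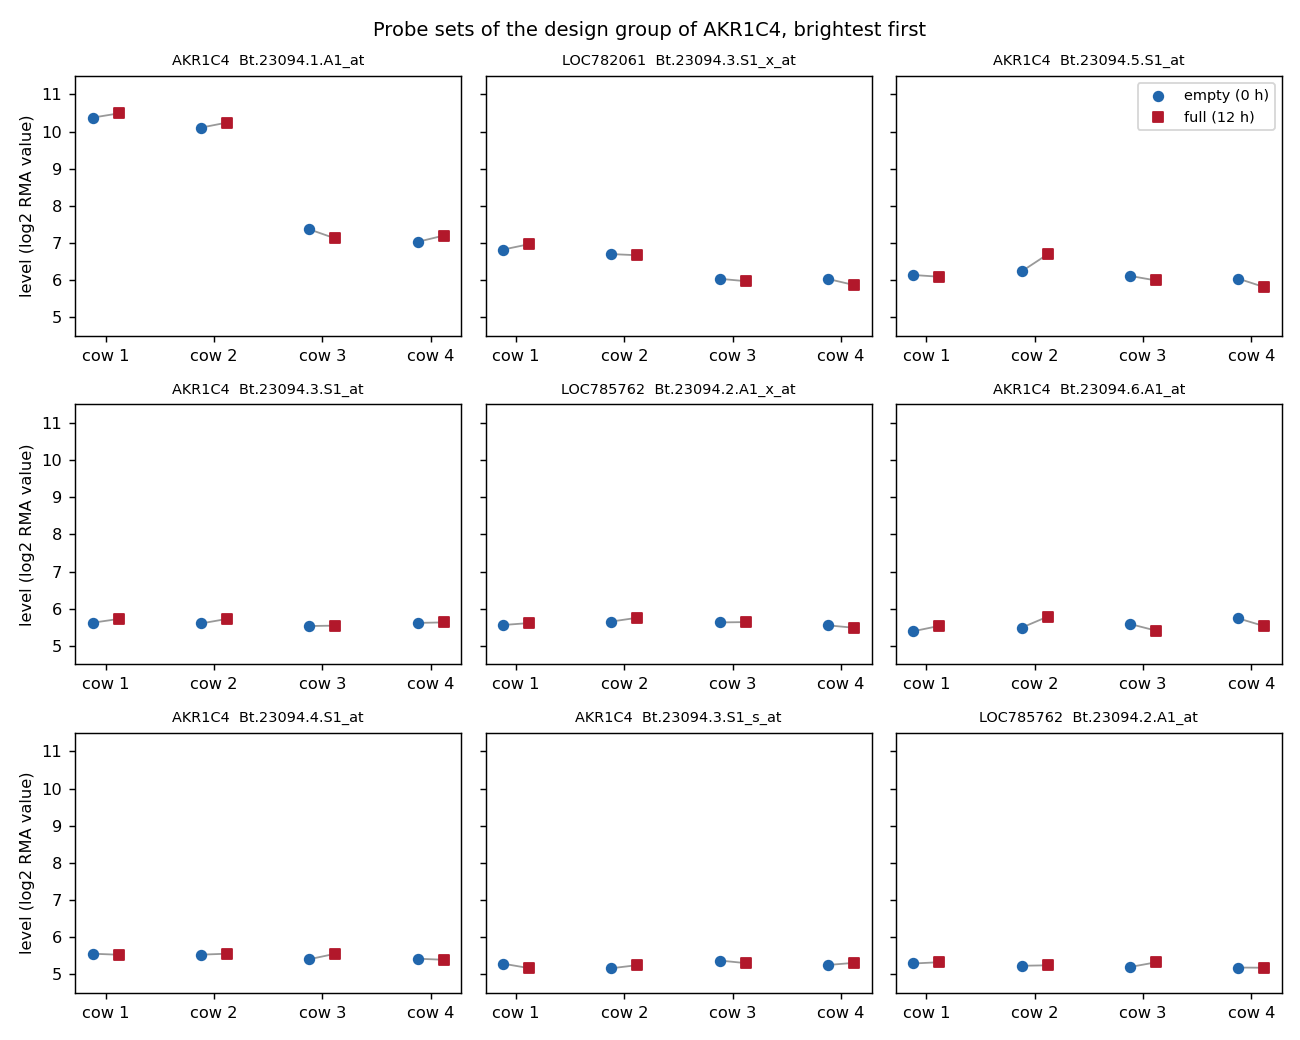
Levels (log2 RMA value) of the 9 probe sets of the AKR1C4 design group, brightest first, by cow, with circles for empty and squares for full gland. Only the brightest AKR1C4 probe set and that of LOC782061 keep cows 1 and 2 wholly above cows 3 and 4.

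AKR1B1 is aldose reductase, which turns glucose into sorbitol and, in cattle, also makes prostaglandin F in the endometrium. It read 7.38 in full and 7.81 in empty gland of cow 1, 7.68 and 7.39 in cow 2, 7.14 and 7.09 in cow 3, and 7.84 and 7.45 in cow 4. Cow 3 was lowest, with both libraries 0.25 log2 or more below the nearest library of another cow, and the other 3 cows overlapped. The span of the cow means was 0.53 log2 (1.45-fold). The largest full minus empty difference, -0.42 in cow 1, came close to that span.

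AKR1A1, an aldehyde reductase that also reduces glucuronate, varied little. It read 10.40 and 10.28 in cow 1, 9.97 and 10.19 in cow 2, 10.19 and 10.20 in cow 3, and 9.92 and 10.30 in cow 4, for full and empty gland. The cow means spanned 0.26 log2 (1.20-fold), less than the full minus empty difference of -0.38 in cow 4. Cow 1 lay above cow 3 by 0.08 log2 between the nearest libraries, and cows 2, 3 and 4 overlapped. The empty libraries lay close together at 10.24 ± 0.06 (SD, n = 4 cows), while the full libraries spread over 10.12 ± 0.22.

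GSTO1 is the omega class transferase, which carries a cysteine in its active site and reduces dehydroascorbate. Its single probe set (entrez gene 505642) read 7.29 in full and 7.45 in empty gland of cow 1, 8.55 and 8.35 in cow 2, 5.17 and 5.11 in cow 3, and 8.57 and 8.51 in cow 4. The cows fell into 3 levels. Cows 4 and 2 overlapped at the top with means of 8.54 and 8.45, cow 1 followed at 7.37 with a gap of 0.91 log2 between the nearest libraries, and cow 3 lay a further 2.12 log2 below at 5.14. From cow 4 to cow 3 the span as read was 3.40 log2, or 10.5-fold.

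The cow 3 values of GSTO1 lay at the bottom of the measured range, at the 0.279 percentile of its full array and the 0.075 percentile of its empty array. The table holds no detection calls, so whether the probe set was above background in that cow is not known. If it was not, the span and the fold are lower bounds. In the other cows GSTO1 lay between the 52.8 and 72.4 percentiles. Full minus empty was -0.16, 0.20, 0.06 and 0.06 in cows 1 to 4, and the 3 levels were seen in both states.

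GSTT1, of the theta class, read 7.91 and 7.97 in cow 1, 8.22 and 7.68 in cow 2, 7.04 and 7.11 in cow 3, and 8.17 and 7.56 in cow 4, for full and empty gland. Cow 3 was again lowest, 0.44 log2 below the nearest library of another cow, and cows 1, 2 and 4 overlapped. The cow means spanned 0.87 log2 (1.83-fold). Full minus empty was 0.54 and 0.62 in cows 2 and 4, and -0.07 and -0.08 in cows 1 and 3. Both positive differences involve the outlying full libraries of cows 2 and 4, and leaving these cows out gave a mean difference of -0.07.

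The spread between animals was set against the gap within pairs as the SD of the 4 cow means over the root mean square of the 4 full minus empty differences. This ratio was 10.4 for the brightest AKR1C4 probe set (1.81 over 0.17 log2) and 11.8 for GSTO1 (1.58 over 0.13 log2). It was 1.03 for GSTT1, 0.75 for AKR1B1 and 0.51 for AKR1A1, and 0.42 to 0.88 for the 5 dim AKR1C4 probe sets. Without cow 3 it fell to 4.32 for GSTO1, 0.098 for GSTT1 and 0.15 for AKR1B1. It was 1.59 for GSTT1 without cow 4, and for AKR1A1 it was 0.24 without cow 1 and 0.92 without cow 4. Its median over all 24016 probe sets was 0.65 and its 99th percentile 3.00, and 5 probe sets (0.0208%) reached 10 or more, 2 of them AKR1C4 and GSTO1. The GSTO1 ratio includes the cow 3 values at the bottom of the range. By the SD of cow means alone, AKR1C4 ranked 15 and GSTO1 ranked 25 of 24016. These values bear on how the genes were chosen and are a description.

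The cow means spanned more than the largest full minus empty difference for 7 of the 10 probe sets, against 43.8% of all probe sets. Nothing is read from this count, since the choice weighs this contrast. Over the whole array, an F-test between the cows in limma called 105 probe sets (0.437%), and it is not used as a test of the members.

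**Figure D3:**
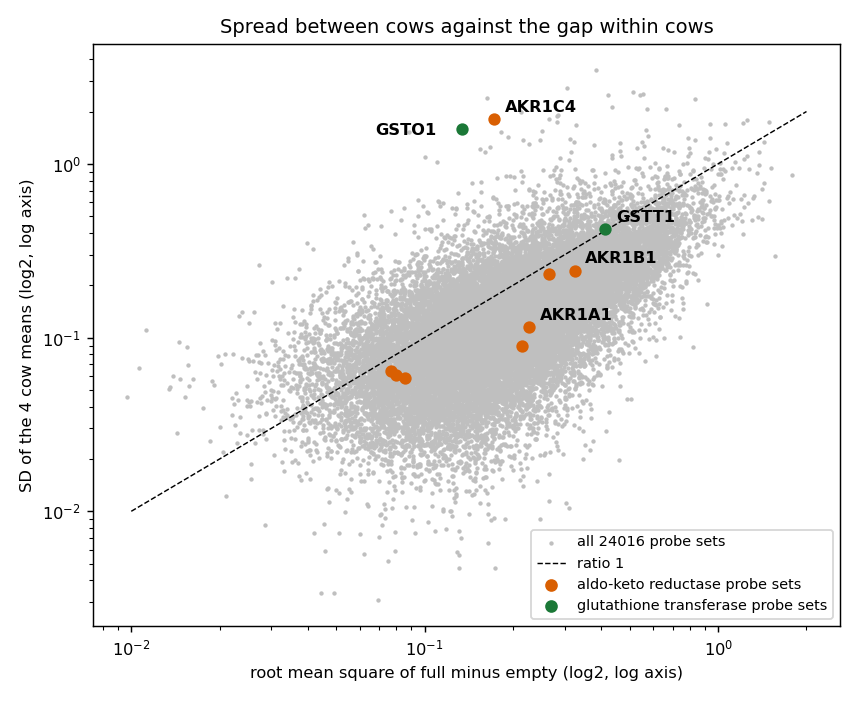
SD of the 4 cow means against the root mean square of the full minus empty differences, both in log2 on log axes, for all 24016 probe sets (grey), the 8 aldo-keto reductase probe sets (orange) and the 2 glutathione transferase probe sets (green). AKR1C4 and GSTO1 lie far above the dashed line of ratio 1, and the other labelled genes lie near or below it.

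No member probe set passed the comparison of full with empty gland (limma with cow as a block, Benjamini-Hochberg adjustment over all probe sets), where 0% of the 24016 probe sets were called. Before adjustment, 600 probe sets of the whole array had a p under 0.05, none of them a member. The brightest AKR1C4 probe set averaged 8.76 ± 1.85 across full and 8.72 ± 1.76 across empty libraries (SD, n = 4 cows), a difference of 0.04 ± 0.09 log2 (limma's moderated SE, adjusted p = 0.993). Its 95% interval ran from -0.19 to 0.27. GSTO1 averaged 7.39 ± 1.60 and 7.35 ± 1.57 in the same order and differed by 0.04 ± 0.08 (limma adjusted p = 0.993), with an interval of -0.16 to 0.24. For these genes the spread between cows within a state was far wider than the difference between the states.

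GSTT1 had the furthest mean from 0 among the members, at 0.25 ± 0.15 log2 (SE, n = 4 cows, limma adjusted p = 0.993) with an interval of -0.11 to 0.62. AKR1A1 differed by -0.12 ± 0.10, with an interval of -0.37 to 0.13, and AKR1B1 by 0.08 ± 0.14, with an interval of -0.28 to 0.43 (limma adjusted p = 0.993 for each). The 5 dim AKR1C4 probe sets differed by -0.01 to 0.06. Full gland was higher in all 4 cows for 1 of the 10 probe sets, a dim AKR1C4 one (by 0.06 on average), against 4.22% of all probe sets, and lower in all 4 for none, against 5.97%. These intervals, widest for GSTT1, do not show that the levels were alike.

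**Figure D4:**
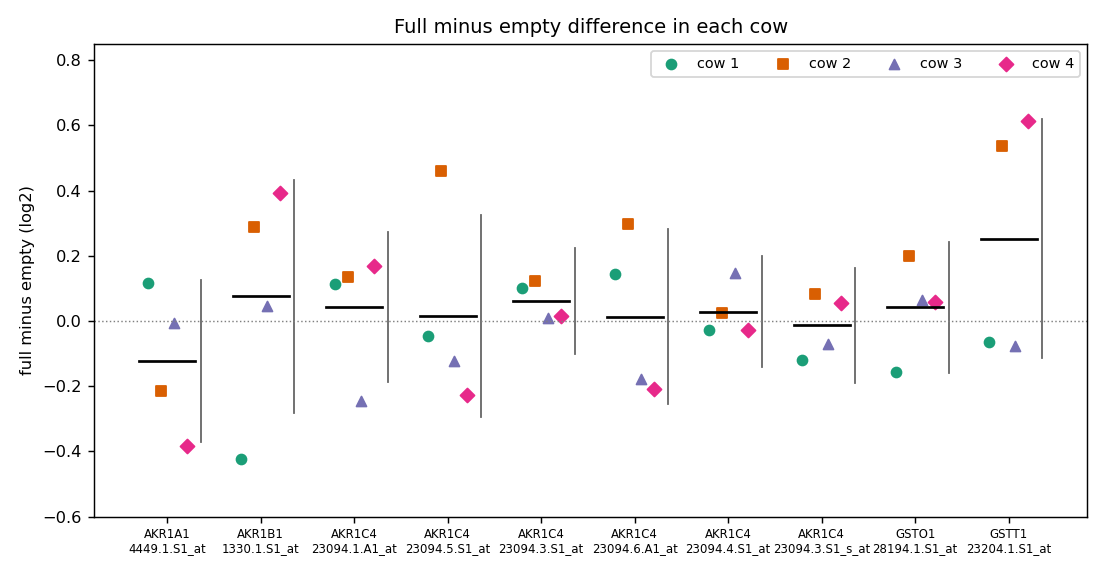
Full minus empty difference (log2) of each of the 10 probe sets in cows 1 to 4 (symbols), with the mean as a black bar and its 95% limma interval as a grey line. All intervals cross 0, and the widest differences, 0.62 and 0.54, are those of GSTT1 in cows 4 and 2.

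Of 76 other genes of the pathway in 5 lists, 47 had a probe set with a single symbol, and 0 passed the comparison of full with empty gland in either direction. Their median full minus empty was -0.04, with 16 higher and 31 lower, against a median of -0.004 and 48.6% higher over all 9155 genes. None had an SD of cow means as wide as that of GSTO1, and the widest was 0.63 log2. Their median spread ratio was 0.79, against 0.67 over all genes.

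Only 2 other aldo-keto reductases were measured. AKR1C3, which lies next to AKR1C4 in the RefSeq gene order, read 5.13 to 5.32 in all 8 libraries. Its mean level was at the 0.566 percentile, near the bottom of the range, so its narrow range does not show that the gene varied little. AKR7A2, an aflatoxin aldehyde reductase, read 6.53 to 7.08. Neither passed between full and empty gland.

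Of the other glutathione transferases 7 were measured, 2 with a higher and 5 with a lower mean in full gland, and none passed. Their SD of cow means reached 0.28 at most. GSTA4, which conjugates aldehydes from lipid peroxidation, read 8.05 and 8.24 in cow 3 and 8.43 to 8.96 in the other cows. MGST1, a membrane-bound transferase, read 11.39 and 11.33 in cow 3 and 11.66 to 11.96 elsewhere. Its relative MGST2 read 11.82 and 11.90 in cow 1 and 11.24 to 11.60 elsewhere. Both libraries of cow 3 lay below the other 6 for GSTA4, MGST1 and GSTK1, which were named after their values were seen, that is for 3 of 7. Over the 5 lists this held for 8 of 47 genes, against 11.0% of all genes, and for 0 of 12 in the list of carbonyl and aldehyde enzymes.

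Genes that make, recycle and break down glutathione were measured for 12 of 14, 2 with a higher and 10 with a lower mean in full gland, and none passed. GSS, glutathione synthetase, read 9.50 and 9.70 in cow 1, 10.19 and 10.92 in cow 2, 10.48 and 10.28 in cow 3, and 9.41 and 9.93 in cow 4, for full and empty gland. GGT1, which splits extracellular glutathione, was lower in full gland in all 4 cows, by -0.50 ± 0.19 log2 on average (SE, n = 4 cows, limma adjusted p = 0.993), where 5.97% of all probe sets were lower in all 4. The difference was -1.10 and -0.74 in cows 2 and 4, whose full libraries lay apart, and -0.13 and -0.03 in cows 1 and 3. CHAC2, which cleaves glutathione in the cytosol, read 6.79 and 6.84 in cow 4 and 7.19 to 7.60 in the other cows.

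Other carbonyl and aldehyde enzymes were measured for 12 of 15, again 2 higher and 10 lower in full gland with none passing. CBR4, a carbonyl reductase of mitochondria, had the highest spread ratio of the 5 lists at 5.07, and read 9.96 and 10.01 in cow 3, 9.51 and 9.50 in cow 2, and 8.83 to 8.98 in cows 1 and 4. DHRS4, a carbonyl reductase of peroxisomes, read 9.15 and 9.16 in cow 1 and 8.45 and 8.74 in cow 2. It read 9.12 and 8.96 in cow 3 and 8.64 and 8.73 in cow 4, so cows 2 and 4 overlapped. ALDH7A1, an aldehyde dehydrogenase, read 10.08 and 10.04 in cow 3 and 9.22 to 9.83 elsewhere. Cow 3, lowest for GSTO1 and GSTT1, was thus highest for CBR4 and ALDH7A1.

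NRF2 pathway and conjugation genes were measured for 14 of 19, 9 with a higher and 5 with a lower mean in full gland, and none passed. MAFF, named after its values were seen, had the mean difference furthest from 0 in the 5 lists. It was 0.83 ± 0.25 log2 (SE, n = 4 cows, limma adjusted p = 0.993). Full gland was higher in all 4 cows, as for 4.22% of all probe sets. The difference was 1.71 and 1.02 in cows 2 and 4, whose full libraries lay apart, and 0.44 and 0.16 in cows 1 and 3. CYP1A1, a cytochrome P450 induced through the aryl hydrocarbon receptor, read 8.24 in both libraries of cow 3 and 6.46 to 7.94 elsewhere. SRXN1, the NRF2 target sulfiredoxin, read 6.40 to 8.55, with the highest value in the full library of cow 4. SULT1A1, a sulfotransferase, read 11.25 and 11.54 in cow 2 and 11.99 to 12.42 in the other cows. Among the 47 genes, 1 had all libraries of cows 1 and 2 above those of cows 3 and 4, as AKR1C4 did, against 2.87% of all genes. This was NQO1, the quinone reductase and NRF2 target, at 9.28 to 9.51 against 8.62 to 8.96, and it was named after its values were seen. NFE2L2, also named after its values were seen, read 10.12 and 10.22 in cow 3 and 10.31 to 10.95 elsewhere.

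**Figure D5:**
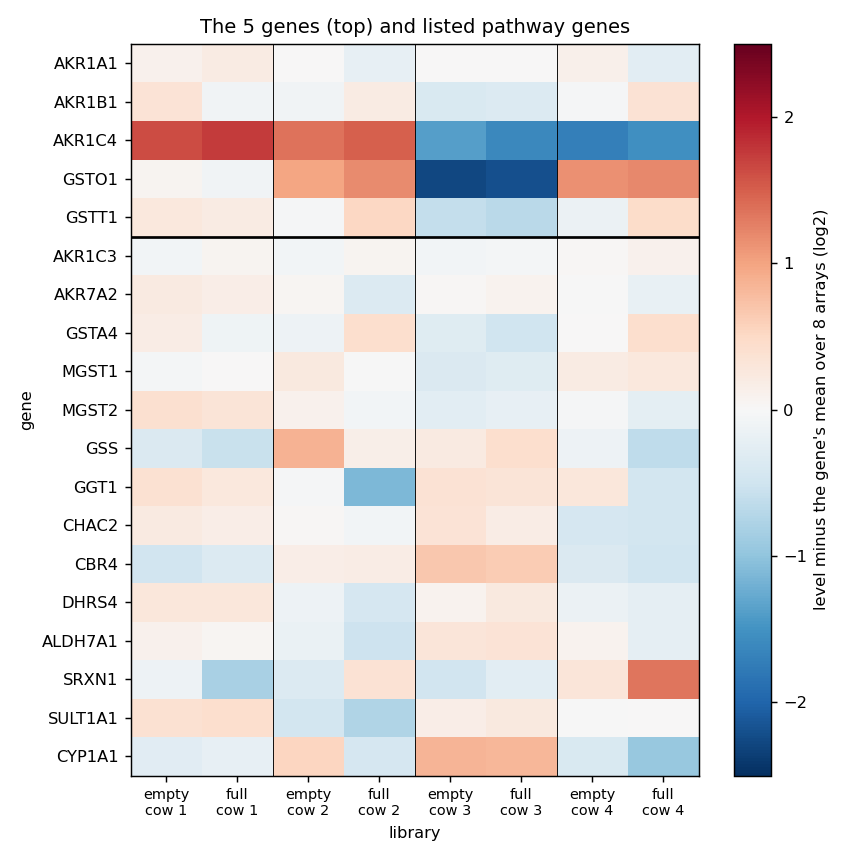
Level of each gene minus its own mean over the 8 arrays (log2, colour) in each library, for the 5 genes above the black line and for up to 3 genes per pathway list below it. AKR1C4 and GSTO1 differ by cow and hardly by state, and the other genes have a narrower range.

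Genes next to the members in RefSeq order, up to 5 on each side, were also read, a choice made after the data were seen. Around AKR1C4, 2 of 10 neighbours had a probe set, LOC785762 and AKR1C3, and their cow means spanned 0.13 to 0.19 log2. Both were dim, with mean levels at the 0.995 and 11.3 percentiles for the probe sets of LOC785762 and at the 0.566 percentile for AKR1C3, so these narrow spans say little about the genes. Around GSTO1, 3 of 10 did. COL17A1, a collagen of the basal epithelium, spanned 0.72 and 0.91 log2 in its 2 probe sets, ITPRIP 0.44 and 0.12, and SORCS3 0.16. Around GSTT1, 3 of 10 did, and MIF, the macrophage migration inhibitory factor, had a wider span than GSTT1 itself, at 1.56 against 0.87 log2, with a spread ratio of 2.04. MIF read 9.55 and 9.43 in cow 1, 7.96 and 8.53 in cow 2, 8.68 and 8.65 in cow 3, and 7.77 and 8.09 in cow 4, for full and empty gland, so cow 1 was highest and cow 3 was not lowest. The other GSTT1 neighbours, DERL3 and SUSD2, spanned 0.16 to 0.45 log2. The 3 measured neighbours of AKR1A1 spanned 0.22 to 0.61 log2, and the 4 of AKR1B1 spanned 0.14 to 0.48.

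The genes most like the brightest AKR1C4 probe set were ranked by Pearson's r over the 8 arrays, which share 4 cows, among 1702 genes that varied by an SD of at least 0.3 log2. LOC782061 came first at r = 0.982. HEPACAM2, a cell adhesion protein, followed at 0.972 with 8.91 to 9.40 in cows 1 and 2 and 7.54 to 7.85 in cows 3 and 4. DEPDC7 came next at 0.962 and CCS, the copper chaperone of superoxide dismutase, at 0.946. C1QTNF7, a secreted protein of the C1q family, stood at 0.944. A value of 0.9 or above was reached by 12 genes, and a pattern of 2 high and 2 low animals in pairs makes such values easy to reach, so they are a description.

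Markers of the cell types that a biopsy can hold were read beside these results. Of 56 measured markers in 9 lists, 0 had all libraries of cows 1 and 2 above those of cows 3 and 4, against 2.87% of all genes. The markers are too few to tell 0 from that share, so nothing is read from this count. Both libraries of cow 3 lay below the other 6 for 14 of the 56 markers (25%), against 11.0% of all genes. The fibroblast and matrix list had 4 of 7 such markers, with a mean level of 10.44 and 10.52 in cow 3 and 10.75 to 11.75 in the other cows. The myoepithelial list had 2 of 7, at 10.01 and 10.09 in cow 3 and 10.20 to 11.31 elsewhere, and the luminal list 1 of 7, at 11.53 to 11.55 against 11.68 to 12.11. The luminal markers did not move together. The mean of cow 3 was the lowest of the cows for KRT8 (7.31), KRT18 (7.41) and EPCAM (10.89). It was the highest for KRT19 (13.41), ELF5 (13.59) and LALBA (14.24), and CSN3 lay between (13.90). The cow means of KRT8 and KRT18 spanned 1.75 and 1.64 log2. Those of the other luminal markers spanned only 0.08 to 0.26, and there the libraries of cow 3 overlapped those of other cows. Of the 4 measured adipocyte markers, ADIPOQ read 5.27 to 5.47, LEP 5.78 to 6.55 and LIPE 6.36 to 6.63, while CFD read 7.39 to 8.20, above the array medians. Cow 3 was lowest in the mean of 8 of the 9 lists, endothelium being the exception. Skeletal muscle was among the 8 by a difference of only -0.02 log2 from the next cow. The erythrocyte list read 5.74 to 5.88 in all libraries, well below the array medians. No share over all genes is given for this count, so nothing is read from it. The part of cell makeup in the low GSTO1, GSTT1 and AKR1B1 of cow 3 was not tested.

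Between full and empty gland, the lists of fibroblast, myoepithelial, myeloid and lymphocyte markers had median differences of 0.61, 0.68, 0.81 and 0.66 log2 in cow 4, and 0.15, 0.42, 0.37 and 0.36 in cow 2. In cow 1 they were -0.28, -0.04, -0.27 and -0.10, and in cow 3 they were -0.09, -0.15, -0.13 and -0.13. The other marker lists rose less or fell in cows 2 and 4. Their medians there, in that order, were -0.45 and 0.09 for endothelium and -0.22 and -0.05 for adipocytes. They were -0.03 and -0.10 for erythrocytes, -0.10 and 0.17 for skeletal muscle, and 0.10 and 0.004 for luminal epithelium. Among the members, GSTT1 and AKR1B1 were higher in the full libraries of cows 2 and 4. AKR1A1 was lower there, at -0.22 and -0.38. The brightest AKR1C4 probe set was at 0.14 and 0.17 in these cows, and GSTO1 at 0.20 and 0.06. The part of the other cell types in those differences was not tested.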

How the data were processed

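RNA from 8 biopsies was hybridised to 8 single-colour Affymetrix bovine arrays, per the labels' protocols. The deposited table holds log2 values that the authors made with RMA, per the submitters' processing notes, which give no version. RMA removes background, forces equal distributions by quantile normalization and combines the probes of a set, which hides any change common to most of the genes. The table held 24128 probe sets, and its 112 platform controls were not tested. Arrays have no read depth, and their number limits the precision.

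Probe sets were named from GEO's platform annotation, and all 10 member probe sets matched the RefSeq genes of ARS-UCD2.0 by entrez number and symbol. A gene of the lists was read from its brightest probe set with 1 symbol. No coordinates or sequences are given.

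The model was limma 3.58.1 in R 4.3.3 (two-sided), fitted to all 8 samples with fixed terms for state and cow and adjusted by Benjamini-Hochberg over 24016 probe sets, with a threshold of 0.05. Cow was a block because the labels name both samples of a cow. Deviations from the group means correlated between both samples of a cow, with r of 0.457, 0.319, 0.598 and 0.525 in cows 1 to 4, while no r between different cows was above -0.03. Taking deviations from the mean of the 4 cows itself pushes the r between different cows below 0, so nothing is read from their sign. Spreads were computed with pandas 2.3.3 and numpy 2.4.6 in Python 3.11.15. Both steps were tested on simulated data.

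The members and lists were chosen with earlier results of these data known. All member probe sets are described. Other genes named were, per list, up to 3 with the widest SD of cow means, and the 5 genes most like the member with the widest one. Outside this rule, NQO1, GSTK1, NFE2L2, MAFF, the cell type markers and the neighbouring genes were named after their values were seen. Alternatives changed the treatment of cow (no replicate block, or a random one), the scaling (centring on medians, or a second quantile normalization), the filter (only probe sets above the median brightness), the prior (intensity trend, robust), the cows (each left out), the summary of AKR1C4 (all its probe sets averaged) and the ratio (of ranges). A fit lacking cows 2 and 4 was added after seeing the data.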

Additional observations from a re-analysis of the deposited data

Results flagged for a closer look

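One dim AKR1C4 probe set, the fifth in brightness, had a library in full gland that lay far from the other 3 for the narrow range of its group. That library was from cow 4, at 5.39 against 5.53 to 5.55 in cows 1 to 3. Its gap took up a share of 0.8291 of the group's range, just above the cutoff of the screen, Dixon's 95% critical value for 4 samples. In all, 20 groups were screened, of which chance flags about 1. Each group compares the cows within a state, and the members are taken as chosen by their spread between cows. The flag is therefore a description and not a test. The gap of about 0.14 log2 is small beside those described for the brightest AKR1C4 probe set.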

How the results depend on the processing

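No member probe set was called between full and empty gland under any of the alternatives run, and 0 probe sets of the array were called in each of them, with 600 at an unadjusted p under 0.05 as the model stands. With no replicate block there were also 0 calls, with 220 at an unadjusted p under 0.05. That unadjusted count was 274 without cow 4, 1120 without cow 1 and 2150 without cows 2 and 4, where the smallest limma adjusted p was 0.142. Of 106 recomputed full minus empty differences 89 kept their sign and 17 turned, none of them past the threshold.

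Without cows 2 and 4, the difference turned to 0.055 for AKR1A1, -0.19 for AKR1B1, -0.046 for GSTO1 and -0.071 for GSTT1, and to -0.066, -0.084 and -0.017 for 3 AKR1C4 probe sets, the brightest of them first. Median centring turned 2 dim AKR1C4 probe sets to -0.0017 and -0.0041. Leaving out each cow gave ranges that crossed 0 for AKR1B1 (-0.030 to 0.24), GSTO1 (-0.011 to 0.11) and 4 dim AKR1C4 probe sets (-0.13 to 0.097, -0.081 to 0.087, -0.010 to 0.048 and -0.045 to 0.023).

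The number of probe sets that limma's F-test called between cows was 105, but 208 after median centring, 248 with an intensity trend and robust prior, and 13 to 131 with 1 cow left out (29 without cow 1, 27 without cow 3 and 13 without cow 4). Without cows 2 and 4 it was 1820, with 1 residual degree of freedom.

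The spread ratio with 1 cow left out was 9.17 to 13.1 for AKR1C4, 4.32 to 16.7 for GSTO1, 0.098 to 1.59 for GSTT1, 0.15 to 0.99 for AKR1B1 and 0.24 to 0.92 for AKR1A1. The lowest values of GSTO1, GSTT1 and AKR1B1 were those without cow 3. The ratio of GSTO1 was 19.4 after repeated quantile normalization. As a ratio of ranges it was 13.5 for AKR1C4 and 1.25 for AKR1B1, and without cows 2 and 4 it was 1.21 for AKR1A1 and 8.61 for GSTT1. The causes were not tested.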

Other observations

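The genes whose levels were most like GSTO1 over the 8 arrays were read by the same measure as for AKR1C4, a step added after the data were seen. SOSTDC1, a secreted antagonist of BMP signalling, had r = 0.957, with 6.61 and 6.71 in cow 3 and 7.35 to 8.27 elsewhere. ERAP1, the aminopeptidase that trims peptides for MHC class I, had r = 0.955, with 6.12 and 6.48 in cow 3, 7.20 and 7.23 in cow 1 and 7.81 to 8.49 in cows 2 and 4. LOC282255 followed at 0.955, CRIP3 at 0.945 and SLC17A9, a vesicular nucleotide transporter, at 0.942. Of 1702 genes, 20 reached 0.9 or above. The GSTO1 values of cow 3 lay far below the rest, and both libraries of cow 3 were lowest for 11.0% of all genes. A pattern led by 1 animal makes high r easy to reach, so these values are a description.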
